A study of Homo sapiens with 12 samples.

Results

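The partial knockdown of annexin A6 (AnxA6, gene ANXA6) in the line BT-A6sh2 was compared with the empty vector line BT-EV. Both lines derive from BT-549, an established line from a human triple-negative breast tumor, of mesenchymal-like character. All 4 arrays titled BT-A6sh2 and all 4 titled BT-EV were used, which is 8 of the 12 arrays of the series; the remaining 4 are BT-A6sh5, a line with another shRNA and a deeper knockdown. Each line is a stable transfectant kept as a sub-clone, and all were grown in DMEM/F12 medium with serum. The 8 arrays therefore compare 1 line with 1 line, and the effect of the shRNA cannot be told apart from other differences between these lines. BT-EV is called an empty vector line in the study and a control shRNA in its labels. The description of BT-A6sh2 replicate 1 names shRNA-5, whereas its title and its transfectant field name shRNA-2, and the array was counted with its title. The titles call the 4 arrays of a line biological replicates while the study's text calls them technical, so the p-values measure only the spread between these arrays.

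AnxA6 belongs to the annexins, a family of proteins that bind negatively charged membrane lipids when Ca2+ rises. It is the only annexin built of a duplicated core, and it scaffolds signaling proteins and cholesterol-rich domains at the plasma membrane. In cultured cells it is known for holding back Ras signaling downstream of the epidermal growth factor receptor, and in breast cancer cells for its part in adhesion and motility. The comparison asks which transcripts differ when this protein is reduced in part. The arrays read RNA and do not measure the protein.

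The levels are log2 values from Affymetrix Human Gene ST arrays, made by robust multi-array averaging (RMA), for 53617 transcript clusters. Of these, 16098 carried a gene symbol and covered 14884 genes, each of them followed by its brightest transcript cluster. Most weight was put on the 10520 named genes with a mean log2 level above 5. As a check of the label, 8 measured mesenchymal markers lay between 6.38 (TWIST1) and 12.35 (FN1) in BT-EV, and 8 epithelial and luminal ones between 3.47 (EPCAM) and 7.10 (KRT18). The ranges overlap, and levels of different probes are not on a common scale. Of the mesenchymal markers only FN1 differed between the lines, and 0 of 8 epithelial and luminal, 0 of 3 basal, 0 of 2 leukocyte, 0 of 3 endothelial and 0 of 2 adipocyte markers did (limma, adjusted). At an unadjusted p under 0.05 the number was 5 mesenchymal, 1 epithelial or luminal and 0 of the other markers.

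The BT-A6sh2 arrays were less alike than the BT-EV arrays. Over the genes with a mean above 5, the residual SD was 0.253 in BT-A6sh2 and 0.104 in BT-EV, and the correlations between arrays of a line ran from 0.973 to 0.990 and were 0.996. BT-A6sh2 replicates 1 and 3 stood apart at the dim end. For transcript clusters with a mean of at most 3, the median difference from BT-EV was 0.72 and 0.70 in these arrays, 0.16 in replicate 2 and 0.35 in replicate 4. Between 7 and 9 the medians of the 4 arrays lay from -0.00 to 0.05, which is why dim genes carry little weight here. The spread did not close. Above 9 the 5th to 95th percentiles ran from -0.93 to 0.62 in replicate 1 and from -0.73 to 0.57 in replicate 3. They ran from -0.39 to 0.45 in replicate 2, from -0.42 to 0.47 in replicate 4 and within -0.21 to 0.17 in the BT-EV arrays. The 36 hybridization control probe sets, spiked into the labeled samples, averaged 8.20 ± 0.0904 (SD, n = 4) in BT-EV and 8.94 ± 0.187 (SD, n = 4) in BT-A6sh2. Their part in the results was not tested.

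**Figure D1:**
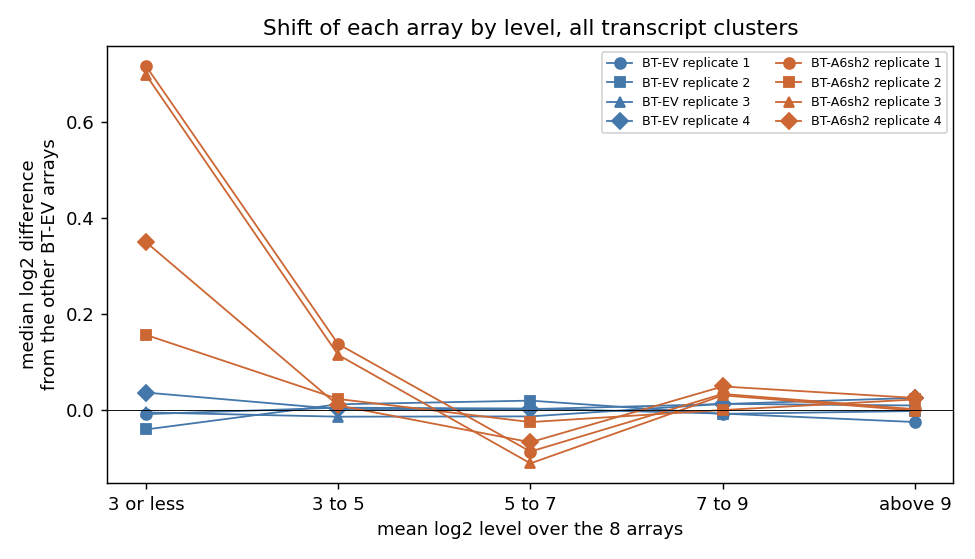
Median log2 difference of each array from the BT-EV arrays other than itself (vertical axis) in 5 classes of mean log2 level (horizontal axis), over all 53617 transcript clusters. BT-A6sh2 replicates 1 and 3 rise to 0.72 and 0.70 in the dimmest class, while the medians of all arrays lie close to 0 above a level of 7. Medians do not show the spread around them.

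ANXA6 itself was lower in every BT-A6sh2 array. Its log2 level was 11.43, 11.42, 11.37 and 11.40 in BT-EV and 10.57, 10.32, 10.50 and 10.41 in BT-A6sh2. The groups did not overlap, and the 4 BT-A6sh2 arrays held 56.1%, 47.2%, 53.3% and 50.1% of the BT-EV mean. The mean was 51.7% ± 3.87 (SD, n = 4), or a log2 fold change of -0.96 with a standard error of 0.09 (limma, adjusted p = 0.0033). An exact two-sided permutation test gave p = 0.0286, the smallest value that 4 against 4 arrays allow. In BT-A6sh5 the level was 16.2% ± 1.08 of the BT-EV mean (SD, n = 4). All of these are RNA levels, whereas the study gives a smaller, limited depletion of AnxA6 for BT-A6sh2. Among the 8 annexins with a mean above 5, ANXA6 and ANXA7 fell and none rose, beside 2.44% and 2.36% of all named genes above 5. At an unadjusted p under 0.05, 3 annexins were lower and 0 higher, beside 14.6% and 12.8%. ANXA7, a membrane-fusing annexin of secretory granules, read 9.62, 9.52, 9.52 and 9.60 in BT-EV and 8.99, 9.03, 8.81 and 9.0 in BT-A6sh2, a change of -0.61 (adjusted p = 0.0178). That second call was lost when any 1 BT-EV array was left out (adjusted p up to 0.084).

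Among the 10520 named genes above a level of 5, 248 were higher (2.36%) and 257 were lower (2.44%) in BT-A6sh2, with the adjusted p below 0.05 (limma, Benjamini-Hochberg over all transcript clusters). A change of at least 2-fold was held by 20 of the higher genes (0.19%) and 34 of the lower ones (0.323%). In 1433 of these genes all 4 BT-A6sh2 arrays lay above all 4 BT-EV arrays (13.6%), and in 1521 all 4 lay below (14.5%). All 505 called genes were among them. At an unadjusted p under 0.05 the shares were 12.8% higher and 14.6% lower. Their number depended on the control arrays: without any 1 BT-EV array between 22 and 26 genes were higher and between 40 and 48 lower. Without BT-A6sh2 replicate 2 the counts were 472 and 467, without replicate 3 they were 134 and 186, and without replicate 4 they were 120 and 204. Among the 54 genes past 2-fold, 38 kept their call whichever array was left out, against 59 of all 505.

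With the dim genes included, 289 of 14884 named genes were higher (1.94%) and 276 lower (1.85%), and the 2 lines did not overlap in 1814 upward (12.2%) and 1662 downward (11.2%). Over all 53617 transcript clusters, 216 were at least 2-fold higher (0.403%) and 126 at least 2-fold lower (0.235%), while 6014 did not overlap upward (11.2%) and 3874 downward (7.23%). This excess of rises lay at the dim end, where the arrays themselves were shifted: 113 of the 216 rises and 24 of the 126 falls had a mean of at most 5. Without BT-A6sh2 replicate 2 these counts were 1106 and 378, and without any 1 BT-EV array they lay between 52 and 68 and between 52 and 60. A further quantile normalization turned 216 against 126 into 118 against 115, and median centring turned 248 against 257 into 345 against 206. The median log2 fold change was -0.03 over the genes above 5 and 0.08 over the others.

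**Figure D2:**
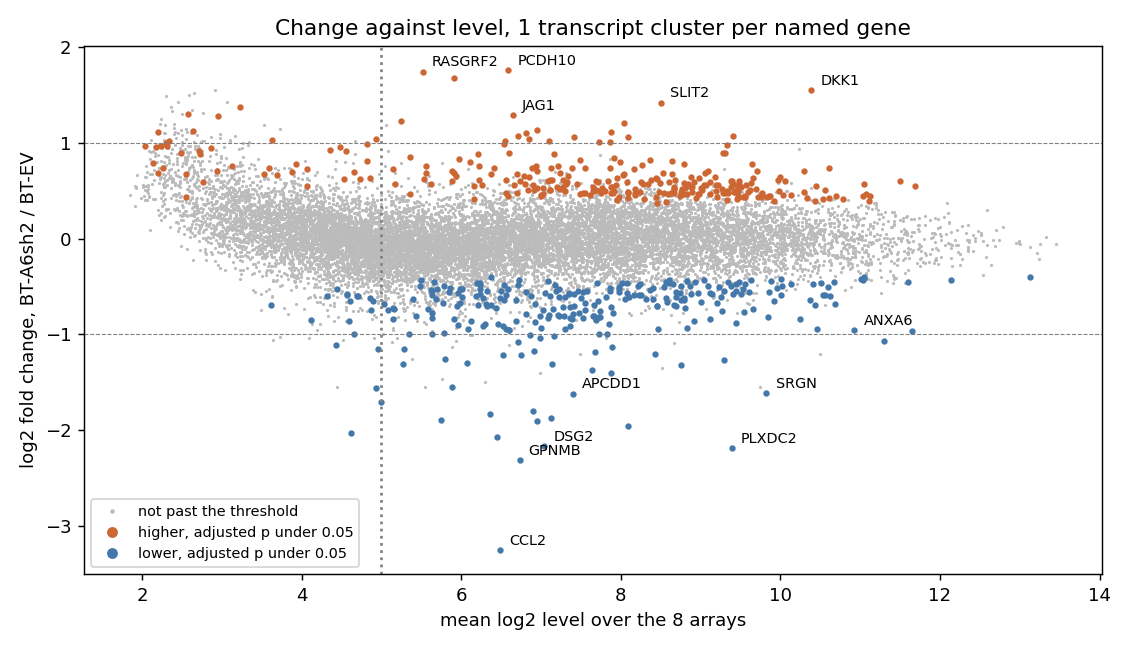
Log2 fold change of BT-A6sh2 over BT-EV (vertical axis) against the mean log2 level over the 8 arrays (horizontal axis) for 14884 named genes, with genes past an adjusted p of 0.05 in color. Dashed lines mark a 2-fold change and the dotted line a level of 5, below which the cloud bends upward.

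The deepest fall belonged to CCL2, the chemokine that draws monocytes to tissues and tumors. Its log2 level was 7.96, 8.34, 8.14 and 8.01 in BT-EV and 3.98, 4.97, 5.68 and 4.79 in BT-A6sh2. All BT-A6sh2 arrays were low, but they spread over more than 1 log2 unit, and the estimate was -3.26 with a standard error of 0.31 (9.55-fold lower, adjusted p = 0.00366). The BT-A6sh2 mean of CCL2, 4.86, lay among the dim levels below 5. GPNMB, a glycoprotein of lysosomes and melanosomes, read 7.85, 7.85, 7.92 and 7.95 in BT-EV and 5.47, 5.63, 5.75 and 5.45 in BT-A6sh2. This was a tight separation of -2.32 ± 0.10 (estimate and standard error, adjusted p = 0.000136). PLXDC2, a membrane protein of the plexin domain family, was bright in BT-EV at 10.48, 10.47, 10.48 and 10.52 and fell to 8.40, 8.38, 8.15 and 8.24, a change of -2.19 ± 0.09 (adjusted p = 0.000136). DSG2, the desmoglein of desmosomal junctions, went from 8.07, 8.13, 8.19 and 8.11 to 5.88, 6.16, 5.84 and 5.94, a change of -2.17 ± 0.10 (adjusted p = 0.00014). Each of these 4 falls kept its call without any single array.

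Other genes fell by about 3-fold to 4-fold. CALB2, the EF-hand Ca2+ buffer calretinin, fell from 7.48 ± 0.13 to 5.41 ± 0.26 (mean ± SD, n = 4, adjusted p = 0.00136). It was the only one of 13 S100 and EF-hand genes past the threshold. The shares called among all named genes above 5 were 2.36% higher and 2.44% lower. At an unadjusted p under 0.05, 0 of the 13 were higher and 3 lower, beside 12.8% and 14.6%. XAF1, an interferon-induced partner of the apoptosis inhibitor XIAP, fell from 7.90 ± 0.069 to 6.0 ± 0.29 (adjusted p = 0.00196). CD24, a mucin-like surface protein used to mark breast cancer cell states, read 8.02, 7.77, 7.75 and 7.65 in BT-EV and 5.71, 6.12, 6.01 and 6.13 in BT-A6sh2, 3.49-fold lower (adjusted p = 0.00157). TMT1A, a methyltransferase of the endoplasmic reticulum formerly named METTL7A, was 3.56-fold lower (adjusted p = 0.00196). LCE2A, a gene of the late cornified envelope family whose near-identical copies can share probes, was 3.67-fold lower (adjusted p = 0.00213). RXFP2, a receptor of relaxin family peptides, fell from 6.66 ± 0.074 to 5.11 ± 0.22 (adjusted p = 0.00208).

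**Figure D3:**
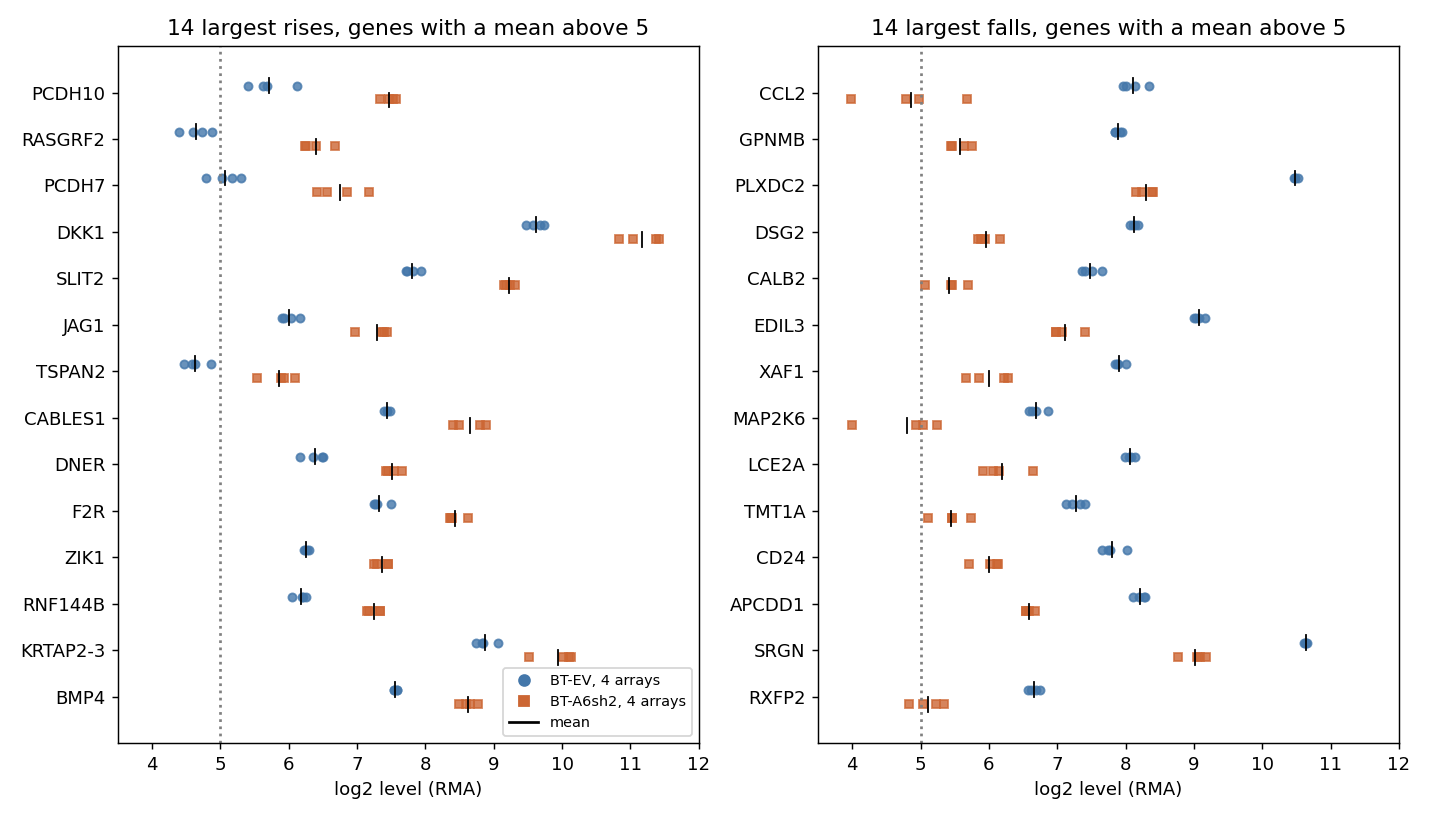
Log2 level (horizontal axis) in each of the 4 BT-EV arrays (circles) and 4 BT-A6sh2 arrays (squares), with group means as ticks, for the 14 largest rises and the 14 largest falls among named genes with a mean above 5. Genes were chosen among those whose groups do not overlap. CCL2 shows the widest spread in BT-A6sh2, from 3.98 to 5.68.

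The falls included genes of the extracellular matrix, the secreted mesh of glycoproteins and proteoglycans that anchors cells. Of 66 matrix glycoprotein and proteoglycan genes written, 52 were measured and 41 had a mean above 5. This list, like the others, was written with earlier results of these data known, so its shares describe the list and test nothing. In BT-A6sh2, 12 of the 41 were lower (29.3%) and 0 higher, beside 2.44% and 2.36% of all named genes above 5. At an unadjusted p under 0.05 the counts were 18 lower and 1 higher, beside 14.6% and 12.8% of all these genes. The list's median log2 fold change was -0.25, beside -0.03. All 4 BT-A6sh2 arrays lay below all BT-EV arrays in 19 of the 41 and above them in 2, beside 14.5% and 13.6%. The count was 8 without any 1 BT-EV array and 10 to 13 without any 1 BT-A6sh2 array, and it was 14 without BT-A6sh2 replicates 1 and 3.

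EDIL3, a matrix protein that binds integrins of endothelial cells, led these genes. It read 9.07, 9.0, 9.03 and 9.16 in BT-EV and 6.99, 6.98, 7.41 and 7.06 in BT-A6sh2, a change of -1.96 ± 0.12 (adjusted p = 0.000614). SRGN, the proteoglycan of secretory granules, was bright in BT-EV and fell from 10.63, 10.63, 10.66 and 10.61 to 8.77, 9.17, 9.05 and 9.09 (-1.61 ± 0.11, adjusted p = 0.00104). CRISPLD2, a secreted protein that binds lipopolysaccharide, read 9.74, 9.96, 9.97 and 10.03 in BT-EV against 8.72, 8.59, 8.74 and 8.57 (-1.27 ± 0.10, adjusted p = 0.00196). MFAP2, a microfibril component, read 7.26, 7.47, 7.30 and 7.41 against 6.18, 6.29, 6.06 and 6.07 (-1.21 ± 0.10, adjusted p = 0.00208). In each of these genes the highest BT-A6sh2 array stayed below the lowest BT-EV array by more than the spread within either line. FNDC1 changed by -1.21, MATN3 of cartilage matrix by -1.18, the thrombospondin THBS2 by -1.07 and the fibulin EFEMP1 by -0.97. These 8 genes kept their call without any single array. The other 4 had smaller changes that were lost without any 1 BT-EV array: tenascin TNC with -0.74, fibrillin FBN1 with -0.67, perlecan HSPG2 with -0.47 and fibronectin FN1 with -0.43.

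**Figure D4:**
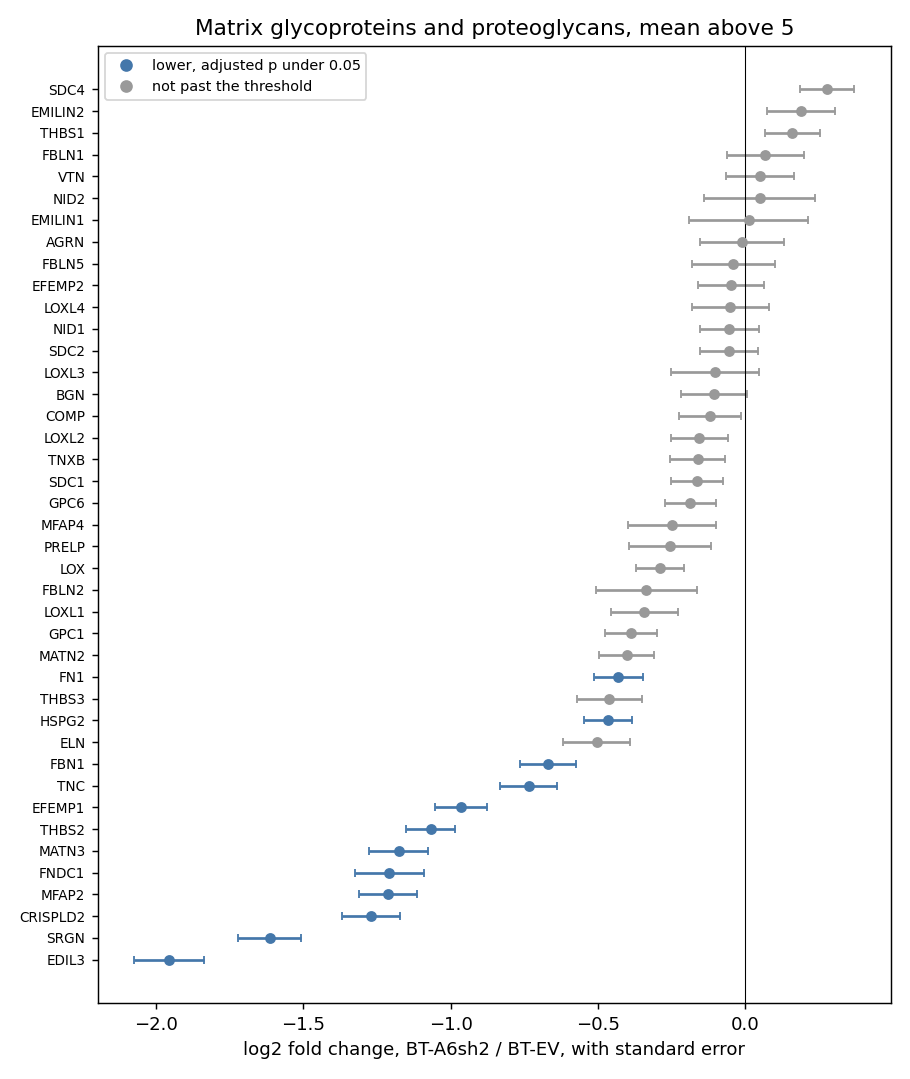
Log2 fold change of BT-A6sh2 over BT-EV with its standard error (horizontal axis) for the 41 matrix genes with a mean above 5 (vertical axis, ordered by change). The 12 genes past the threshold run from -1.96 for EDIL3 to -0.43 for FN1, and the highest value, 0.28 for SDC4, is not past it.

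Of 26 genes above 5 for extracellular proteases and their inhibitors, 2 were higher and 1 lower, with a median of -0.16. The 26 include the receptor F2R, which is also counted among the G protein-coupled receptors. Of all named genes above 5, 2.36% were called higher and 2.44% lower. Before adjustment 2 were higher and 9 lower (12.8% and 14.6% of all genes above 5), and the groups did not overlap upward in 3 and downward in 11 (13.6% and 14.5%). The lower count was 7 with a trended robust prior and 6 with 1 transcript cluster per named gene. ADAM12, a membrane metalloprotease, went from 11.02 ± 0.039 to 10.34 ± 0.092 (-0.68, adjusted p = 0.0113). TFPI2, a Kunitz inhibitor of plasmin, went from 9.94 ± 0.049 to 10.65 ± 0.11 (0.71, adjusted p = 0.0112). Both calls were lost without any 1 BT-EV array. F2R, the thrombin receptor PAR1, read 7.29, 7.25, 7.26 and 7.49 in BT-EV and 8.38, 8.38, 8.62 and 8.36 in BT-A6sh2, 2.16-fold higher (adjusted p = 0.0033), and kept its call whichever array was left out.

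Among cadherin family genes, which hold cells to each other in a Ca2+-dependent way, both called rises were protocadherins and the called fall was DSG2, out of 18 genes with a median of -0.11. Of all named genes above 5, 2.36% were called higher and 2.44% lower. At an unadjusted p under 0.05, 4 of the 18 were higher and 7 lower, beside 12.8% and 14.6%. PCDH10 read 6.11, 5.41, 5.69 and 5.62 in BT-EV and 7.57, 7.34, 7.46 and 7.52 in BT-A6sh2. PCDH7 read 4.78, 5.30, 5.02 and 5.16 against 7.17, 6.41, 6.85 and 6.56. Both were high in every BT-A6sh2 array, by 1.76 ± 0.15 (adjusted p = 0.0024) and 1.68 ± 0.19 (adjusted p = 0.00671). PCDH7 began near the level of 5, where dim genes start.

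Ras proteins are switched on by exchange factors, of which RASGRF2 responds to Ca2+ and calmodulin. Its log2 level was 4.59, 4.88, 4.40 and 4.72 in BT-EV and 6.39, 6.26, 6.68 and 6.24 in BT-A6sh2. The estimate was 1.74 ± 0.14 (3.35-fold higher, adjusted p = 0.00213), from a starting level below 5, so its mean passed 5 only through BT-A6sh2. The study describes RASGRF2 as raised in the knockdown lines in its TaqMan assays. It adds, however, that the limited knockdown in BT-A6sh2 appeared too small to raise this gene, and calls the result in this line inconsistent. A second transcript cluster annotated to RASGRF2, with a mean of 5.12, changed by 0.38 and was not past the threshold (adjusted p = 0.198). The size of the change thus differed between these clusters, and whether both read the same strand was not tested. Of 18 Ras family, exchange factor and GTPase-activating genes, RASGRF2 and RASGRP1 (0.57, adjusted p = 0.0399) were higher and RRAS (-0.45, adjusted p = 0.043) was lower. The shares of all named genes above 5 were 2.36% and 2.44%. At an unadjusted p under 0.05, 2 of the 18 were higher and 4 lower, beside 12.8% and 14.6%. RASGRP1 rose from a BT-EV mean of 4.89 to 5.46, so its mean passed 5 only through BT-A6sh2. The calls for RASGRP1 and RRAS were lost without any 1 BT-EV array and without BT-A6sh2 replicate 3 or replicate 4. EGFR, the receptor upstream, read 10.57, 10.64, 10.77 and 10.73 in BT-EV and 10.85, 10.70, 10.74 and 10.78 in BT-A6sh2, and these ranges overlapped (0.09 ± 0.09, adjusted p = 0.555). Of 11 EGF receptor family, ligand and adaptor genes 0 passed limma's adjusted threshold, and 2 were higher and 2 lower at an unadjusted p under 0.05, against 12.8% and 14.6% of all named genes above 5. GAPDH, often used as a reference gene, changed by 0.17 (adjusted p = 0.349).

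Downstream of Ras, the MAP kinase cascade induces immediate early transcription factors and the phosphatases that switch it off. Of 27 such genes 4 were higher (14.8%) and 0 lower, beside 2.36% and 2.44% of all named genes above 5, with a median of 0.19. At an unadjusted p under 0.05 the counts were 9 and 1, beside 12.8% and 14.6%. EGR1, a zinc finger immediate early factor, read 10.17, 10.32, 10.30 and 10.14 in BT-EV and 10.71, 11.28, 11.13 and 10.77 in BT-A6sh2 (0.74, adjusted p = 0.0384). FOSB, an AP-1 subunit, read 7.31, 7.10, 7.10 and 7.19 against 7.80, 8.0, 8.08 and 7.77 (0.74, adjusted p = 0.0176). The groups did not overlap in either gene, yet the steps were under 2-fold. The MAP kinase phosphatases DUSP5 and DUSP1 rose by 0.61 (adjusted p = 0.0178) and 0.58 (adjusted p = 0.0209). Second transcript clusters gave 0.48 for EGR1 (adjusted p = 0.0482), 0.19 for FOSB (adjusted p = 0.459) and 0.41 for DUSP5 (adjusted p = 0.139). None of the 27 genes was past the threshold once any 1 BT-EV array was left out. Of 14 genes for the kinases themselves 0 were higher and 1 lower at the adjusted threshold. At an unadjusted p under 0.05, 3 were higher and 3 lower, beside 12.8% and 14.6%. The called gene was MAP2K6, which activates p38 and whose mean passed 5 only through BT-EV. It read 6.87, 6.58, 6.63 and 6.69 in BT-EV and 4.93, 5.23, 3.99 and 5.04 in BT-A6sh2 (-1.89 ± 0.25, adjusted p = 0.0123), with replicate 3 lowest, and its call too was lost without any 1 BT-EV array.

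The promoters of EGR1 and DUSP1 are shown because both genes rose and a search found a response element in their windows. The same search found neither element in the window of FOSB, which also rose. The stretches are from RefSeq on GRCh38.p14 and run 5′ to 3′ along the gene's strand up to the start of transcription. EGR1 lies at chr5:138465359-138465478 on the plus strand, with capitals on its CArG boxes, to which serum response factor binds, starting 105 and 83 bases before the gene. DUSP1 lies at chr5:172771196-172771335 on the minus strand, with capitals on a cAMP response element, TGACGTCA, starting 125 bases before the gene.
EGR1: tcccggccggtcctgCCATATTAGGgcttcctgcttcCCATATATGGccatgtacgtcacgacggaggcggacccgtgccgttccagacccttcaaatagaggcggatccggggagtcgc
DUSP1: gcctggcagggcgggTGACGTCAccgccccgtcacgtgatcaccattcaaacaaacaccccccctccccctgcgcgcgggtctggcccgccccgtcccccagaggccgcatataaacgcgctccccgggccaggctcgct
Among 35116 promoter windows of 300 bases, searched on both strands, 1.29% held a CArG box and 1.85% held TGACGTCA. These matches describe the sequence only and were not tested against the changes.

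Interferon-stimulated genes, induced by STAT factors during antiviral responses, held 1 higher and 4 lower members among 27 above 5, beside 2.36% and 2.44% of all named genes, with a median of -0.20. Before adjustment 2 were higher and 10 lower (12.8% and 14.6% of all), and the groups did not overlap upward in 2 and downward in 9 (13.6% and 14.5%). Besides XAF1, the lower ones were the membrane proteins IFITM2, IFITM3 and IFITM1, which block virus entry. IFITM2 read 6.27, 6.20, 6.39 and 6.24 in BT-EV and 5.56, 4.95, 5.01 and 5.65 in BT-A6sh2 (-0.99, adjusted p = 0.0302). IFITM3 read 6.90, 6.88, 6.95 and 6.71 against 6.25, 6.35, 6.09 and 6.18 (-0.64, adjusted p = 0.0201). IFITM1 read 8.49, 8.53, 8.69 and 8.80 against 8.21, 7.83, 8.17 and 7.80 (-0.63, adjusted p = 0.0479). All 3 were low in every BT-A6sh2 array, but the IFITM genes are near-identical neighbors whose probes can share signal, so they are not 3 independent readings. IFIT5, an RNA-binding antiviral protein, was the 1 higher member with 0.59. XAF1 alone kept its call without any 1 BT-EV array.

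The starts of IFITM1, IFITM3 and IFIT5 are shown because these genes moved in opposite directions and held a match. The stretches of 60 bases before the start come from RefSeq on GRCh38.p14, at chr11:313980-314039 on the plus strand, chr11:320861-320920 on the minus strand and chr10:89414508-89414567 on the plus strand. Capitals mark GAAANNGAAA, the core of the interferon-stimulated response element, or its reverse complement in IFIT5.
IFITM1: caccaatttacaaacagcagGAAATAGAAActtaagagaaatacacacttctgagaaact
IFITM3: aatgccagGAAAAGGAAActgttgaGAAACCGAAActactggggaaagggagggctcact
IFIT5: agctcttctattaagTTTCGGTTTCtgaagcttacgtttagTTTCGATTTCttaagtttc
IFITM1 and IFITM3 fell and IFIT5 rose. Of the 35116 windows 3.57% held this core on either strand. The 2 windows of XAF1 held none.

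Among chemokines, interleukins and their receptors, 3 of 16 genes above 5 were lower and 0 higher (median -0.23), beside 2.44% and 2.36% of all. At an unadjusted p under 0.05, 5 were lower and 3 higher (14.6% and 12.8% of all). Besides CCL2 the called genes were IL15, a cytokine that sustains lymphocytes, from 5.53 ± 0.16 to 4.79 ± 0.082 (adjusted p = 0.0169), and OSMR, the oncostatin M receptor, from 10.86 ± 0.061 to 10.27 ± 0.15 (adjusted p = 0.0285). The mean of IL15 passed 5 only through BT-EV. CCL2 alone kept its call without any 1 BT-EV array. Of 8 NF-kappaB subunits and targets 0 passed the adjusted threshold in limma, and 3 were lower and 0 higher before adjustment (14.6% and 12.8% of all).

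Of 34 Wnt ligands, receptors and inhibitors 1 was higher and 2 were lower (median -0.04), beside 2.36% and 2.44% of all named genes above 5. At an unadjusted p under 0.05, 2 were higher and 7 lower, beside 12.8% and 14.6%. DKK1, an inhibitor that binds the LRP co-receptors, was already bright in BT-EV at 9.47, 9.57, 9.73 and 9.67 and reached 10.82, 11.42, 11.04 and 11.37 in BT-A6sh2 (1.55 ± 0.15, adjusted p = 0.00366). APCDD1, a membrane inhibitor of Wnt signaling, went the other way, from 8.11, 8.19, 8.26 and 8.28 to 6.55, 6.59, 6.54 and 6.67 (-1.62 ± 0.09, adjusted p = 0.000337). SFRP2, a secreted frizzled-related protein, read 8.50, 8.62, 8.50 and 8.72 against 7.65, 7.12, 7.23 and 6.72 (-1.40 ± 0.19, adjusted p = 0.0123). The fall of SFRP2 lost its call without any 1 BT-EV array, whereas the other 2 did not.

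The Notch ligands JAG1 and DNER rose. JAG1, a canonical ligand, read 5.92, 5.90, 6.03 and 6.16 in BT-EV and 7.37, 6.97, 7.39 and 7.44 in BT-A6sh2 (1.29 ± 0.13, adjusted p = 0.00416). DNER, a non-canonical ligand of neurons, read 6.49, 6.35, 6.17 and 6.50 against 7.65, 7.45, 7.54 and 7.43 (1.14 ± 0.11, adjusted p = 0.00368). MAML2, a co-activator of Notch, was 1.39-fold lower (adjusted p = 0.0309), a call lost without any 1 BT-EV array. These were the 3 called genes of the 25 Notch genes above 5, whose median was 0.01. Of all named genes above 5, 2.36% were called higher and 2.44% lower. At an unadjusted p under 0.05, 5 Notch genes were higher and 3 lower, beside 12.8% and 14.6%.

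In the TGF-beta and BMP pathway, 2 of 26 genes were higher and 1 lower (median -0.07), beside 2.36% and 2.44% of all named genes above 5. At an unadjusted p under 0.05, 3 were higher and 4 lower, beside 12.8% and 14.6%. BMP4, a ligand, read 7.53, 7.58, 7.59 and 7.54 in BT-EV and 8.65, 8.49, 8.77 and 8.60 in BT-A6sh2 (1.06 ± 0.09, adjusted p = 0.0024). FST, follistatin, which captures activins and BMPs, rose from 8.85 ± 0.04 to 9.75 ± 0.042 (adjusted p = 0.00286). LTBP1, which tethers latent TGF-beta to the matrix, fell from 8.94 ± 0.078 to 8.0 ± 0.13 (-0.94, adjusted p = 0.00538). All 3 kept their calls without any single array.

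Guidance cues first known from growing axons also split. SLIT2, the ligand of Robo receptors, read 7.72, 7.72, 7.94 and 7.81 in BT-EV and 9.18, 9.23, 9.15 and 9.30 in BT-A6sh2 (1.42 ± 0.09, adjusted p = 0.00103). The semaphorin co-receptors NRP2 and NRP1 were lower by a fold of 1.73 (adjusted p = 0.0137) and 1.56 (adjusted p = 0.00952). PLXDC2, which this list also holds, was lower. With the ephrin receptor EPHA4 (0.62) and the plexin PLXNA2 (0.60) higher, 3 of 28 genes rose and 3 fell (median -0.03). The shares of all named genes above 5 were 2.36% and 2.44%. At an unadjusted p under 0.05, 7 of the 28 rose and 8 fell, beside 12.8% and 14.6%. EPHA4 and PLXNA2 kept their calls only when BT-A6sh2 replicate 2 was the array left out. SLIT2 and PLXDC2 kept theirs without any 1 array, NRP2 lost its call without any 1 BT-EV array, and NRP1 lost its own without BT-EV replicate 2, 3 or 4.

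At an unadjusted p under 0.05, 7 of 27 G protein-coupled receptor and RGS genes were higher and 6 lower. The shares of all named genes above 5 were 12.8% and 14.6%. After adjustment 3 of the 27 were higher and 4 lower (median -0.14), beside 2.36% and 2.44%. The rises were F2R, the peptide receptor QRFPR with 1.04 (adjusted p = 0.0123) and the adhesion receptor ADGRG1 with 0.47. The falls were RXFP2, the prostaglandin receptors PTGFR with -1.0 (adjusted p = 0.00741) and PTGER4 with -0.72, and RGS3, which speeds G protein turn-off, with -0.40. F2R, RXFP2 and PTGFR kept their calls without any 1 BT-EV array.

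The remaining large rises had varied roles. TSPAN2, a tetraspanin, read 4.86, 4.63, 4.58 and 4.46 in BT-EV and 5.88, 6.10, 5.53 and 5.92 in BT-A6sh2 (1.23 ± 0.14, adjusted p = 0.00855). It started below 5, and its mean passed that level only through the BT-A6sh2 arrays. CABLES1, which links cyclin-dependent kinases to Abl, read 7.44, 7.44, 7.40 and 7.48 against 8.89, 8.40, 8.80 and 8.49 (1.21 ± 0.13, adjusted p = 0.0052), and its second transcript cluster changed by 0.69 (adjusted p = 0.114). ZIK1, a zinc finger protein, and RNF144B, a ubiquitin ligase, were 2.15-fold (adjusted p = 0.00208) and 2.1-fold higher (adjusted p = 0.00286). KRTAP2-3, a hair keratin-associated protein with near-identical copies, was 2.1-fold higher (adjusted p = 0.0169), and this call was lost without any 1 BT-EV array.

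Of 57 cell cycle and replication genes 3 were higher and 0 lower (median 0.06), beside 2.36% and 2.44% of all named genes above 5. At an unadjusted p under 0.05, 17 were higher and 3 lower, beside 12.8% and 14.6%. The 4 BT-A6sh2 arrays lay above the BT-EV arrays in 20 of the 57 and below in 3, beside 13.6% and 14.5% of all named genes above 5. The called genes were the phosphatase CDC25A (8.07 ± 0.059 to 8.69 ± 0.13, adjusted p = 0.0214), cyclin CCNE1 (9.07 ± 0.078 to 9.54 ± 0.14, adjusted p = 0.0471) and the replication factor GINS2 (10.12 ± 0.058 to 10.54 ± 0.048, adjusted p = 0.0394). None was called without any 1 BT-EV array.

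Lipid genes, of interest because AnxA6 binds cholesterol-rich membrane, changed by less than 2-fold. Their calls stand beside 2.36% higher and 2.44% lower of all named genes above 5. Of 20 cholesterol genes, the sterol carrier STARD4 (-0.61, adjusted p = 0.0367) and DHCR7, a last-step enzyme of synthesis (-0.50, adjusted p = 0.0329), were lower. Of 28 fatty acid and triglyceride genes, the fatty acid receptor CD36 (0.83, adjusted p = 0.0201) and the lipid droplet protein PLIN2 (0.57, adjusted p = 0.0227) were higher, and the desaturases FADS2 (-0.45, adjusted p = 0.0325) and SCD (-0.40, adjusted p = 0.0403) were lower. A second transcript cluster of SCD changed by -0.06 (adjusted p = 0.878). Before adjustment 1 cholesterol gene was higher and 7 lower, and 3 fatty acid genes were higher and 6 lower (12.8% and 14.6% of all). None of the 6 adjusted calls held without any 1 BT-EV array. Among 33 actin genes 1 was higher and 2 lower, beside 2.36% and 2.44% of all named genes above 5. At an unadjusted p under 0.05, 6 were higher and 9 lower, beside 12.8% and 14.6%. ARHGEF3, an activator of RhoA, fell by 0.83 on the log2 scale (adjusted p = 0.00858), a call lost without BT-EV replicate 2. Tropomyosin TPM1 fell by 0.78 (adjusted p = 0.00613), and its second transcript cluster by 0.31 (adjusted p = 0.341). TAGLN was higher with 0.69 (adjusted p = 0.0288), a call lost without any 1 BT-EV array.

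Several processes held 1 or 2 calls each, which were lost without any 1 BT-EV array unless stated. Of all named genes above 5, 2.36% were called higher and 2.44% lower. Among 23 lysosome genes GPNMB, which kept its call, and the peptidase TPP1 (-0.43, adjusted p = 0.0383) were lower. Before adjustment 9 of the 23 were lower and 0 higher (14.6% and 12.8% of all genes above 5), and all BT-A6sh2 arrays lay below in 11 and above in 1 (14.5% and 13.6%). Of 14 p53 targets TP53INP1 was lower (-0.61, adjusted p = 0.0386), and of 20 oxidative stress genes catalase, CAT, was lower (-0.54, adjusted p = 0.0243). The stress factor DDIT3 (0.45, adjusted p = 0.0316) and the secreted STC2 (0.41, adjusted p = 0.0403) were higher among 20 unfolded protein response genes. Their list had a median of -0.09 and a lowest change of -0.53. Before adjustment 4 of these 20 were higher and 6 lower, against 12.8% and 14.6% of all genes above 5. The peptide hormone ADM (0.44, adjusted p = 0.0434) was higher and ANGPTL4 (-0.48, adjusted p = 0.0336) lower among 19 glycolysis and hypoxia genes. PSG2, of the near-identical pregnancy-specific glycoproteins, was lower (-1.30, adjusted p = 0.0494) among 8 genes of its list, and PSG1, with a mean of 4.61, read 5.74, 5.60, 5.42 and 5.77 in BT-EV and 3.58, 4.39, 3.06 and 3.35 in BT-A6sh2 (-2.03 ± 0.26, adjusted p = 0.0112). The call for PSG1 was lost without BT-EV replicate 1, 2 or 4. At this threshold 0 of 41 ribosomal, 0 of 15 respiratory chain, 0 of 9 chaperone and 0 of 10 Ca2+ channel, store and pump genes passed in limma. Before adjustment 7 ribosomal genes were higher and 2 lower, 2 chaperones were higher, 3 Ca2+ genes were lower and 0 respiratory chain genes differed, against 12.8% higher and 14.6% lower of all named genes above 5. Counted in this way, 3 p53 targets were higher and 3 lower, and 3 oxidative stress genes were higher and 2 lower. For glycolysis and hypoxia 4 were higher and 2 lower, and in the list of PSG2 0 were higher and 3 lower.

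**Figure D5:**
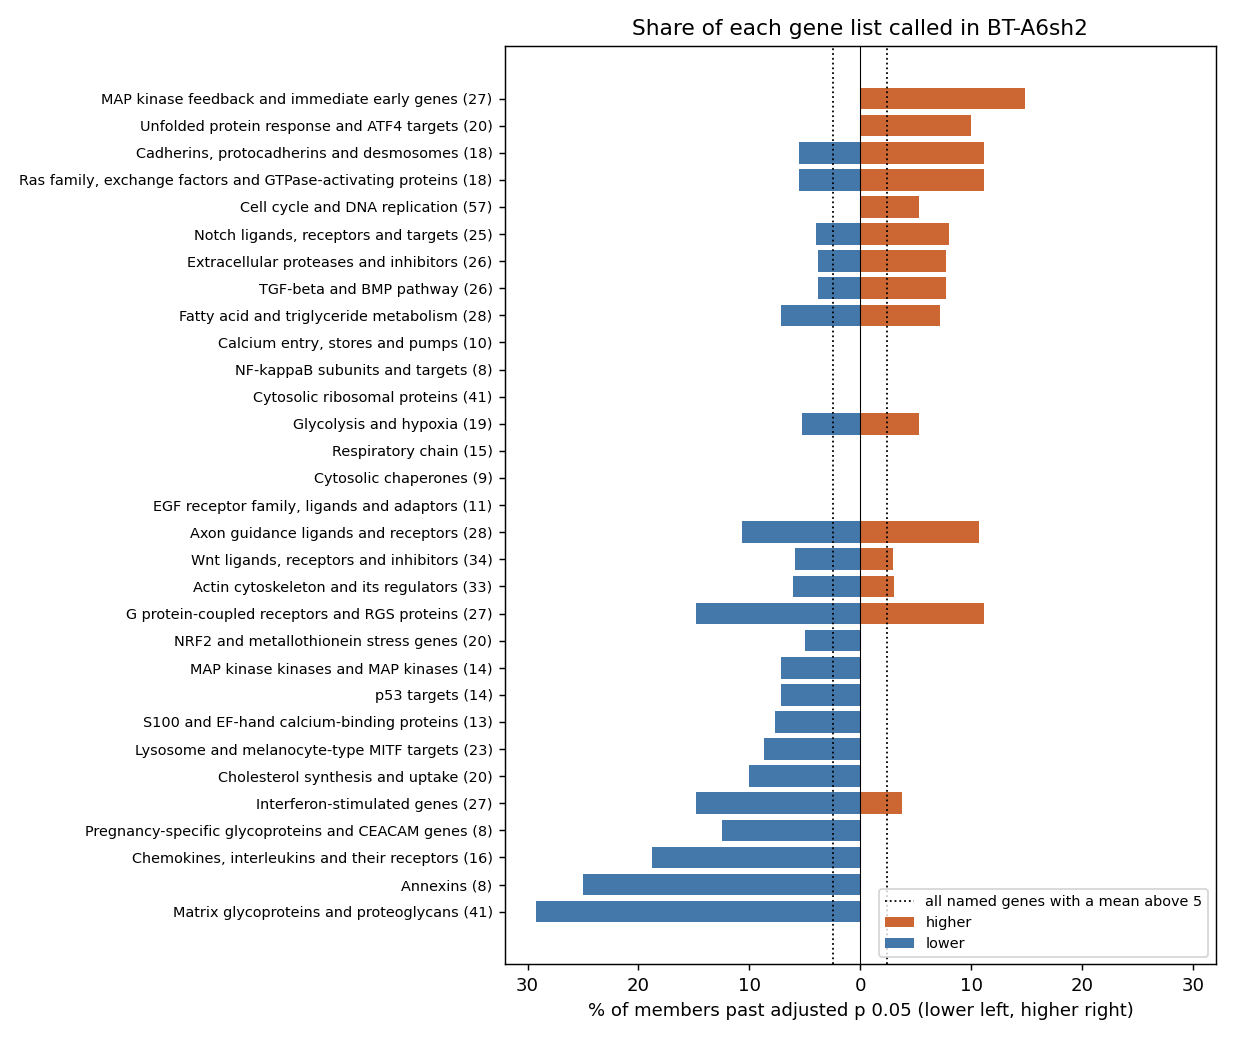
Percentage of the members with a mean above 5 (their number in parentheses) that were higher (right) or lower (left) in BT-A6sh2, with the adjusted p below 0.05, for the 31 gene lists with measured members. Dotted lines mark the 2.36% and 2.44% of all named genes above 5. The matrix list reaches 29.3% on the lower side, and most lists rest on 1 to 4 genes. All lists were written with earlier results of these data known.

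The genes changed in BT-A6sh2 did not all stand at the same level in BT-A6sh5, where ANXA6 is lower still. In a fit of all 12 arrays, 377 of the 505 called genes and 44 of the 54 past 2-fold differed between the knockdown lines, against 3863 of all 10520 genes (36.7%). These counts share the BT-A6sh2 arrays with the calls themselves. RASGRF2, PCDH10, PCDH7 and JAG1 reached 8.88, 8.95, 8.13 and 8.86 in BT-A6sh5, and BT-A6sh2 minus BT-A6sh5 was -2.49 (adjusted p = 1.64e-07), -1.47 (adjusted p = 1.42e-05), -1.38 (adjusted p = 0.000117) and -1.57 (adjusted p = 3.48e-06). CD24, TMT1A and APCDD1 were lower still in BT-A6sh5, at 4.09, 4.18 and 5.63 (adjusted p = 5.46e-07, 5.54e-05 and 1.95e-05). The study picked all of these genes from these same arrays as consistently changed in both knockdown lines. Its stricter criteria weighed how far AnxA6 was depleted in each line, so their shared direction follows from that choice. For several of the largest changes, BT-A6sh5 stood on the other side of BT-EV. EDIL3 averaged 9.07 in BT-EV, 7.11 in BT-A6sh2 and 10.74 in BT-A6sh5 (BT-A6sh2 against BT-A6sh5, adjusted p = 1.37e-09). SRGN averaged 10.63, 9.02 and 11.99 (adjusted p = 1.77e-09), PLXDC2 10.49, 8.29 and 11.08 (adjusted p = 1.69e-09), and DSG2 8.13, 5.96 and 9.15 (adjusted p = 4.23e-09). DKK1 averaged 9.61, 11.16 and 7.68 (adjusted p = 1.09e-08) and DNER 6.38, 7.52 and 4.54 (adjusted p = 7.4e-08). GPNMB was low in both knockdown lines, at 5.57 and 5.15 (adjusted p = 0.0403).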

How the data were processed

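Total RNA of BT-549 lines was amplified, labeled and hybridized to Affymetrix Human Gene ST arrays. The authors deposited log2 values made by RMA in Affymetrix Expression Console. Affy, RMA and limma, with no versions, are listed in the submitters' processing notes. RMA evens out whole-array intensity, so changes are relative to the other genes. A genome build for the array values is not given in the sources used here. Values were used as deposited. The number of arrays limits the precision, 0 values were missing and 0 pairs of arrays were identical. Symbols came from the platform annotation (0 transcript clusters had several and 37519 had none, 190 of them control probe sets), and 779 genes had more than 1 transcript cluster. Whether the transcript clusters of such a gene read the same strand was not tested.

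BT-A6sh2 and BT-EV were compared on 8 arrays by a two-sided moderated test of limma 3.58.1 (lmFit, eBayes) under R 4.3.3. The fit had 6 residual degrees of freedom and 2.431 from the prior. The p-values were adjusted over all 53617 transcript clusters by Benjamini-Hochberg. Genes were called at an adjusted p under 0.05. The line comparison with BT-A6sh5 came from a fit of all 12 arrays. Named genes were ANXA6, GAPDH, 9 genes that the paper's array results name (its others are not reported here), the 14 largest rises and falls above a level of 5 with no overlap between groups, and up to 4 called members per list with the largest changes; further called list members are given as well. The members and the 32 gene lists were chosen with earlier results of these data known. Not analysed here were the proteasome list, immunoblots, quantitative PCR and other sub-clones of the study.

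On simulated data with these group sizes, a log2 shift of 0.5 was recovered in 16 of 67 shifted transcript clusters (23.9%). A shift of 1 was recovered in 48 of 67 (71.6%) and of 2 in 65 of 66 (98.5%). The same simulation of 53617 transcript clusters gave 42 false calls beside these 16, 48 and 65 recovered ones. False calls were thus a larger share of all simulated calls than the adjusted p threshold aims for. Promoter stretches came from RefSeq (GRCh38.p14). Python 3.11.15 with pandas 2.3.3 and matplotlib 3.10.9 made the tables and figures. The alternatives were a joint fit of 3 lines, a trended robust prior, transcript clusters above the median, 1 transcript cluster per gene, further quantile normalization, a replicate block, median centring, limma's treat at 1.2-fold, array weights and left-out arrays.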

Additional observations from a re-analysis of the deposited data

Results flagged for a closer look

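In 156 groups of 4 arrays the gap of the most distant array was set against the range of its group, and 9 exceeded Dixon's 95% critical value for 4 values. Chance alone gives about 1 in 20. In BT-A6sh2 the gap took 0.8525 of the range for JAG1, where replicate 2 was lowest, 0.9269 for F2R, where replicate 3 was highest, 0.9207 for FST and 0.8492 for NRP1, where replicate 1 was highest in both, 0.8439 for DHCR7, where replicate 3 was highest, and 0.8386 for TPP1, where replicate 1 was lowest. In BT-EV it took 0.8559 for TP53INP1, where replicate 1 was highest, and 0.8796 for PTGFR, where replicate 3 was highest. These genes were called with all 8 arrays.

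The hybridization control probe sets, which belong to no gene, averaged 0.7407 higher on the log2 scale in BT-A6sh2 than in BT-EV. Within BT-A6sh2, replicate 4 was lowest, with a gap of 0.8896 of the range. Their part in the gene results was not tested.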

How the results depend on the processing

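Among the 74 named genes past the threshold, 0 changed sign under any alternative tried; 33 kept their call whichever array was left out and 41 lost it at least once. The counts moved more. In the order higher and lower, the 216 and 126 transcript clusters past 2-fold became 550 and 207 in a fit of all 3 lines, 47 and 48 with 1 transcript cluster per named gene, 66 and 65 against a 1.2-fold change, 120 and 138 among the transcript clusters above the median, 118 and 115 after a further quantile normalization, and 289 and 113 after median centring. The 248 and 257 named genes above 5 became 590 and 659, 701 and 731, 21 and 45, 678 and 679, 176 and 200, and 345 and 206 in these settings, and 640 and 627 with a trended robust prior. Of the 505 genes, 505 were shared with the fit of 1 transcript cluster per gene, 498 with that of all 3 lines, and 66 with the test against 1.2-fold. With array weights, 221 and 273 were called, and without BT-A6sh2 replicates 1 and 3 together 224 and 314.

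With 1 array left out, the transcript clusters past 2-fold ranged from 52 to 1106 higher and from 52 to 378 lower. The named genes above 5 ranged from 22 to 472 higher and from 40 to 467 lower, and those past 2-fold from 15 to 21 higher and from 23 to 60 lower. Each lowest count came from leaving out a BT-EV array, and each highest from leaving out BT-A6sh2 replicate 2. The cause was not tested. ANXA6 kept its call in each of these, with changes from -1.0 to -0.91.

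Replicate numbers did not pair the arrays: arrays of the same number correlated by -0.044 to -0.0046, and 0 of 8 arrays matched best with their own number. With a replicate block, 8 transcript clusters were at least 2-fold higher and 15 lower, and 1 named gene above 5 was higher and 10 were lower, all past 2-fold. ANXA6 then changed by -0.96 with an adjusted p of 0.0904, and of the 74 named genes 63 lost their call in the block.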
